A study of Homo sapiens with 11 samples.

Results

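FOXO1 was silenced in A673sh Ewing sarcoma cells in which EWS-FLI1 had also been knocked down, and the transcripts that became more and less abundant are described. A673sh is a line that makes a short hairpin RNA (shRNA) against EWS-FLI1, the fusion oncoprotein of this tumour, when doxycycline is added. The comparison used 4 of the 11 Affymetrix HG-U133 Plus 2 arrays, 2 with a plasmid for an shRNA against FOXO1 (pRS-sh-FOXO1, here sh-FOXO1) and 2 with a scrambled shRNA plasmid (pRS-sh-scrambled, here sh-scrambled). All 4 came from cells given 1 µg/ml doxycycline for 48 h, so both groups carried the EWS-FLI1 knockdown. The plasmids were transfected transiently and both groups were kept in blasticidin and zeocin. Transfected and untransfected cells were therefore measured together, and fewer responding cells cannot be told apart from a smaller response in each cell. The labels give a replicate number to each array but do not say whether the numbers stand for separate cultures, so the p-values measure only the spread between arrays, which may be technical. The 4 arrays of the same plasmids without doxycycline, where EWS-FLI1 is still made, and 3 single arrays of empty vector, AKT-resistant FOXO1 and CDK2-resistant FOXO1 were used for comparison.

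FOXO1 is a forkhead transcription factor that is held outside the nucleus when AKT phosphorylates it. In the nucleus it activates genes of cell cycle arrest, antioxidant defence and catabolism in many tissues, and it can act through contacts with other DNA-bound factors. EWS-FLI1 activates genes of proliferation and represses genes of mesenchymal and secretory programmes, so that its loss alters a large part of the transcriptome in this line. Silencing FOXO1 on top of that loss describes which levels differ, in either direction, when the FOXO1 shRNA is present.

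Falls of chemokine and IL6 transcripts were among the largest, and the promoters of CXCL1, CXCL2, CXCL3, CXCL6, CCL20 and IL6 hold the NF-kB motif, so these stretches are shown first. Promoters were read from RefSeq (GRCh38.p14) as 250 bases before and 50 after each start, which covered 9989 of the 12326 genes tested. The NF-kB motif, read as GGG and TTTCC with any 2 bases between them, was sought on both strands. It was found in 12 of the 231 lowered genes that have a promoter (5.19%), in 5 of 289 raised ones (1.73%) and in 2.23% of all 9989. In the list of chemokines and related secreted factors, 5 of the 8 lowered members with a promoter and 0 of the 4 that were not called held it, and CXCL8 and CHI3L1 were among the lowered members that did not. Among the interleukin 1 and NF-kB genes it was held by 0 of 3 lowered members and by 6 of 22 that were not called, NFKB1, NFKBIA, NFKBIZ, REL, TNFAIP3 and IL32. These stretches lie 5′ of the start and the capitals mark the motif. It began 79 bases before the start in CXCL1, 78 in CXCL2, 79 in CXCL3, 90 in CXCL6, 79 in CCL20 and 73 in IL6. The stretches of CXCL1, CXCL2 and CXCL3 are nearly alike, so their matches are not separate occurrences in the counts. CXCL1 lies at chr4:73869284-73869353 (plus strand), CXCL2 at chr4:74099234-74099303 (minus), CXCL3 at chr4:74038729-74038798 (minus), CXCL6 at chr4:73836558-73836627 (plus), CCL20 at chr2:227813733-227813802 (plus) and IL6 at chr7:22727097-22727166 (plus).
CXCL1: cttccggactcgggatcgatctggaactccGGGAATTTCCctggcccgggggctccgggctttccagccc
CXCL2: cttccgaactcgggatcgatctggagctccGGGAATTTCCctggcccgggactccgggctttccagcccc
CXCL3: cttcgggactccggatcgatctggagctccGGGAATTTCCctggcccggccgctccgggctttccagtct
CXCL6: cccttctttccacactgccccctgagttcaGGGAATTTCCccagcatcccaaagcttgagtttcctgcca
CCL20: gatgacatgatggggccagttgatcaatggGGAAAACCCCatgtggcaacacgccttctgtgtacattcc
IL6: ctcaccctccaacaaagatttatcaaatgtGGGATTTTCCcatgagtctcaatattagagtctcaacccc

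The motif that FOXO factors bind, GTAAACA on either strand, was held by 8 lowered genes (3.46% of those with a promoter), 7 raised genes (2.42%) and 2.25% of all 9989. It is shown for 3 lowered and 3 raised genes, since it occurred on both sides. ACTA2 encodes smooth muscle actin, PROS1 the anticoagulant protein S and KYNU the kynurenine-splitting enzyme kynureninase. GDF15 encodes a stress-induced cytokine of the TGF-beta family, CTSL a lysosomal protease and PERP a desmosomal membrane protein. The stretches are at chr10:88991522-88991587 (ACTA2, minus strand), chr3:93973986-93974052 (PROS1, minus), chr2:142877414-142877475 (KYNU, plus), chr19:18386032-18386098 (GDF15, plus), chr9:87725937-87726003 (CTSL, plus) and chr6:138107543-138107609 (PERP, minus), and the capitals mark the motif.
ACTA2: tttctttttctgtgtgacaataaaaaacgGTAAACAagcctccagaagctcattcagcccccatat
PROS1: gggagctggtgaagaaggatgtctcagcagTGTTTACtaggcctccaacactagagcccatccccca
KYNU: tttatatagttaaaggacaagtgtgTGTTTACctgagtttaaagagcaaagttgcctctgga
GDF15: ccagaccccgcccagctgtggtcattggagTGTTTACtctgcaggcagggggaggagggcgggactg
CTSL: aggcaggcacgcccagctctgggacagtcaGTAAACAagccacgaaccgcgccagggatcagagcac
PERP: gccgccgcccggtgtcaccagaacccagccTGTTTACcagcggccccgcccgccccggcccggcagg

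Of 3 further motifs, the AP-1 motif TGACTCA was held by 4.15% of raised and 2.16% of lowered genes (3.09% of all) and the cAMP response element TGACGTCA by 4.15% and 2.6% (3.29% of all). The cell cycle homology region TTTGAA, which recurs in promoters of mitotic genes, was held by 9.69% of raised and 15.2% of lowered genes (9.86% of all). No match of one motif overlapped a match of another. A match is a description of the letters and no evidence of binding.

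FOXO1 itself was checked first. On the deposited log2 scale its probe set read 7.35 and 7.04 on the sh-scrambled arrays and 5.76 and 5.75 on the sh-FOXO1 arrays, so the groups did not overlap. The difference was -1.44 (standard error 0.11, limma adjusted p = 0.00014). A second probe set read 7.79 and 7.80 against 6.18 and 6.38, a difference of -1.51 with doxycycline and also -1.51 without it. One more probe set of low reading stayed between 3.64 and 3.78 on the 4 arrays. FOXO1 thus remained measurable after silencing, near the level of 5.86 and 5.81 that sh-scrambled cells had without doxycycline. FOXO3, its closest relative in function, read 10.38 and 10.31 against 10.30 and 10.43 (difference 0.02, limma adjusted p = 0.91). FOXO1 was called alone among 16 forkhead genes tested. The largest other differences in that list were those of FOXN3 (-0.59), FOXM1 (-0.49) and FOXN2 (0.43).

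The second check was EWS-FLI1. FLI1, whose 3′ part is in the fusion transcript, read 6.92 and 6.93 on the sh-scrambled arrays and 7.17 and 7.25 on the sh-FOXO1 arrays. The difference of 0.29 had a limma adjusted p of 0.065, and its 2 further probe sets above the filter were at -0.03 and -2e-04. Of 10 Ewing sarcoma identity genes 1 rose (10%, against 3.08% of all genes), XG (4.37 and 4.42 against 5.12 and 5.49, difference 0.91). XG was under the 60th percentile (5.71 to 5.72) on all 4 arrays. With the filter on the mean of the doxycycline arrays 0 members of this list rose. CD99, the surface antigen used to recognise the tumour, differed by 0.50 and was not called. Summed on the linear scale the 10 genes read 4410 and 4450 against 5300 and 5640, and the part of this in the results was not tested. Epithelial markers (5 tested, summed 1470 and 1370 against 1710 and 1670) and blood cell markers (4 tested, 243 and 234 against 261 and 251) had 0 called genes in either direction. Of 8 endothelial markers 1 rose, the VEGF receptor gene KDR, and their sum was 1990 and 2010 against 2210 and 2230. Reference genes (13), RNA interference and nucleic acid sensing genes (19), heat shock genes (13) and HOX genes (22) also had 0 called by limma at either an adjusted or an unadjusted p together with the fold limit.

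In all, 380 of 12326 genes rose (3.08%) and 292 fell (2.37%) at a limma adjusted p under 0.05 and a log2 difference past 0.7, which is 1.62-fold. With an unadjusted p the counts were 381 (3.09%) and 292. Past a log2 difference of 1 were 133 raised (1.08%) and 93 lowered genes (0.755%). Past 2 were 7 in each direction (0.0568%). The median size was 0.90 among raised and 0.88 among lowered genes, so the directions were close in number and size. Without the fold limit, 1742 genes (14.1%) were higher and 1686 (13.7%) lower. Just inside the limit of 0.7 were PLAT (0.7012) and NSD3 (0.7021), and just outside it were KIAA1549 (0.6991) and, among lower genes, LIF (-0.6990).

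Every called gene differed the same way in both same-numbered pairs, and 306 of the raised and 222 of the lowered genes were past 0.7 in each pair. The groups did not overlap for any called gene, but nor did they for 33.3% (higher) and 34.2% (lower) of all genes. Over all genes the pair differences correlated at 0.914, a description over genes that share the same 4 arrays. Of the raised genes 246 reached the 60th percentile of values on all 4 arrays, as did 206 of the lowered ones. Another 102 and 60 reached it in the higher group alone, and 25 and 13 on none of the 4, having passed the filter on other arrays.

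**Figure D1:**
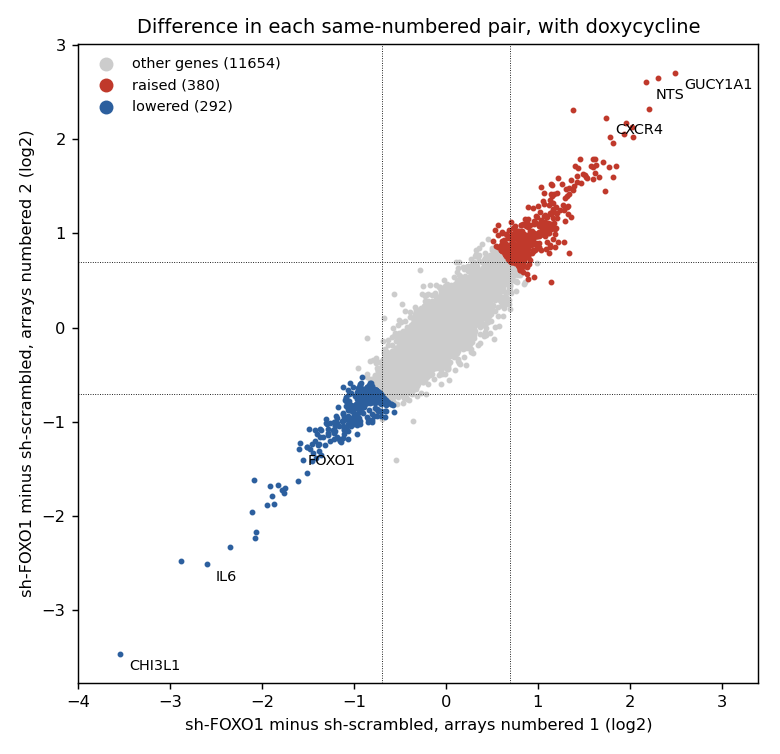
Each point is 1 of 12326 genes. The axes give the sh-FOXO1 minus sh-scrambled difference (log2) between the arrays numbered 1 (horizontal) and numbered 2 (vertical), with doxycycline. Red marks the 380 raised and blue the 292 lowered genes, dotted lines mark 0.7 in each direction, and all called genes lie in the quadrants where both pairs have the same sign.

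The largest rise was that of GUCY1A1, the alpha subunit of soluble guanylate cyclase, the enzyme that makes cGMP in response to nitric oxide. It read 6.003 and 5.87 on the sh-scrambled arrays and 8.50 and 8.57 on the sh-FOXO1 arrays. The difference was 2.601 (standard error 0.14, limma adjusted p = 4.8e-05), and its 2 other probe sets gave 2.84 and 2.56. Of 37 cGMP, cAMP and G-protein genes 3 rose (8.11%, against 3.08% of all genes) and 0 fell. The others were RGS2, a brake on G-protein signals (0.72), and PRKACB, a catalytic subunit of protein kinase A (0.91). PRKACB rose at 1 probe set, while the one with the highest mean gave -0.57 and another gave -0.12.

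Of 26 neuropeptide and peptide hormone genes 9 rose (34.6%, against 3.08% of all genes) and 1 fell (3.85%, against 2.37%). The median over all 26 was 0.31 against -0.0045 over all genes. The 26 are those of 45 listed genes that were tested. With doxycycline NTS, SST and CALCB reached the filter's percentile in the sh-FOXO1 group alone and TAC1 in neither, so the filter favours the count and the median. Among genes read at the 60th percentile on all 4 doxycycline arrays, 4 members rose (GAL, GRP, NPY and SCG2). NTS, the precursor of the gut and brain peptide neurotensin, read 5.43 and 5.33 against 7.62 and 7.94 (difference 2.39, standard error 0.11, limma adjusted p = 2.8e-05). GAL, the precursor of galanin, read 7.09 and 6.96 against 8.88 and 8.99 (difference 1.91, limma adjusted p = 5.8e-05). In neither gene did the groups overlap, nor did they in any other called gene.

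Smaller rises in that list came from PENK (proenkephalin, 1.28), SCG2 (secretogranin II, a granule protein, 1.27), CALCB (a calcitonin gene-related peptide, 1.08), SST (somatostatin, 0.96) and NPY (neuropeptide Y, 0.94). TAC1, which encodes substance P, rose by 0.78 from readings of 3.01 and 3.00 that are at the low end of the scale. GRP, gastrin-releasing peptide, rose by 0.71, and its difference was 0.65 without sh-scrambled replicate 1 and 0.67 without sh-FOXO1 replicate 2. The member that fell was BDKRB2, the bradykinin B2 receptor (-0.89). Of the 5 raised members with a promoter SST alone held the cAMP response element.

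Several ligands and receptors that guide vessels and nerves rose. In the list of FGF, PDGF, VEGF and ephrin genes 7 of 43 rose (16.3%, against 3.08% of all genes) and 2 fell (against 2.37%), while the list median was -0.04. KITLG, the ligand of the KIT receptor, read 6.42 and 6.56 against 8.03 and 8.14 (difference 1.59, limma adjusted p = 5e-05). NRP2, a co-receptor for VEGF and semaphorins, read 6.43 and 6.61 against 8.04 and 8.32 (1.65, limma adjusted p = 7.1e-05). KDR, a VEGF receptor, read 6.60 and 6.47 against 8.13 and 8.05 (1.56, limma adjusted p = 2.8e-05). These 3 were higher on both sh-FOXO1 arrays than on either sh-scrambled array, as was every raised gene. Also raised were FGF13 (1.30), NRP1 (1.01), EFNB2 (0.94) and PDGFA (0.72), and EPHA7 (-0.95) and EFNA1 (-0.77) fell.

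CXCR4, the receptor of the chemokine CXCL12 and a gene often listed among FOXO targets, read 6.80 and 6.48 against 8.55 and 8.71. The difference was 1.99 (standard error 0.12, limma adjusted p = 5.8e-05), and 2 other probe sets gave 1.47 and 1.46. Its ligand CXCL12 rose as well, from 9.52 and 9.55 to 10.22 and 10.33 (0.74). It was the raised member of a list of chemokines and related secreted factors in which 9 genes fell.

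The NOTCH and Hedgehog list had 4 raised (15.4%, against 3.08% of all genes) and 0 lowered genes among 26. DLK1 and HEY2 reached the 60th percentile in the sh-FOXO1 group alone, and 2 members rose among genes that reached it on all 4 arrays. DLK1, a NOTCH-like transmembrane protein of progenitor cells, read 4.70 and 4.73 against 6.73 and 6.86 (2.08, standard error 0.08, limma adjusted p = 1.8e-05). The NOTCH ligand JAG1 (0.75) and the NOTCH-induced repressors HEY1 (0.70) and HEY2 (1.503) were the others. HEY2 without a filter on low values was represented by another probe set, which gave 0.47. LEF1, a nuclear partner of beta-catenin, rose by 1.46 (6.87 and 6.89 against 8.23 and 8.46), and WLS, the carrier that brings WNT ligands to the surface, by 0.98.

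Adhesion and matrix lists held genes on both sides. Among all genes 3.08% rose and 2.37% fell. Of 37 matrix glycoproteins and proteoglycans 4 rose (10.8%), THBS1, NID1 (0.82), NID2 (0.98) and GPC1 (0.84). In that list 2 fell (5.41%), THBS3 (-0.71) and SRGN, and the median was -0.05. Of 32 collagens and collagen enzymes 2 rose (COL6A3, COL11A1) and 2 fell (COL5A2, PLOD2 at -0.83), 6.25% each way. The list median was -0.01. Of 28 integrin, laminin and focal adhesion genes 5 rose (17.9%) and 1 fell (3.57%). ITGA2, a collagen-binding integrin subunit, read 6.54 and 6.35 against 8.17 and 8.15 (1.71, limma adjusted p = 0.00012), and its second probe set gave 0.80. ITGB3 (1.57), ITGB8 (0.81) and LAMA4 (0.82) also rose, but ITGB3 and LAMA4 were not called by their probe sets of highest mean (0.54 and 0.44). The rise of TLN1 (0.72) and the fall of ITGA8 (-0.82) each rested on 1 probe set, since the probe set with the highest mean gave -0.17 for TLN1 and -0.15 for ITGA8. Of 31 matrix proteases and inhibitors 6 rose (19.4%) and 2 fell (6.45%). Among these TIMP3, an inhibitor of metalloproteinases, rose from 8.84 and 8.71 to 10.27 and 10.26 (1.49), and MMP3 by 1.03. The collagenase MMP13 fell from 5.67 and 5.81 to 4.31 and 4.46 (-1.36).

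COL6A3, a collagen VI chain, and IGFBP5, a binding protein of insulin-like growth factors, were among the raised genes of highest reading. COL6A3 read 11.92 and 11.87 against 12.64 and 12.78 (0.81, limma adjusted p = 0.0011) and IGFBP5 11.48 and 11.44 against 12.28 and 12.34 (0.85, limma adjusted p = 0.0011). GAP43, a growth cone protein of neurons, read 10.88 and 10.89 against 12.09 and 12.05 (1.19, limma adjusted p = 4.8e-05). Readings of different probe sets do not rank transcripts, so this selection names genes that are read well above the filter. The others were SOX11, a transcription factor of neural progenitors (0.82), TENT5A, a poly(A) polymerase (1.04), RSRP1 (0.80) and GADD45A, a DNA damage and growth arrest gene (0.92). RSRP1 lost its call when either sh-scrambled replicate 1 or sh-FOXO1 replicate 2 was left out (0.68 in each case).

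Among mesenchymal transition factors SNAI2 rose from 9.75 and 9.86 to 10.90 and 10.90 (1.10, limma adjusted p = 0.00016). ZEB1 (0.83) and PRRX1 (0.79) rose too. In the list of cadherins and transition factors 3 of 18 genes rose (16.7%, against 3.08% of all genes) and PCDH7 fell (-1.08). HMOX1, the haem-degrading enzyme of the antioxidant response, read 7.05 and 7.08 against 8.76 and 8.83 (1.73, standard error 0.08, limma adjusted p = 1.9e-05). Of the other 18 antioxidant genes none rose and ME1 fell (-1.07), or by -0.33 at its probe set with the highest mean. CD274, which encodes the checkpoint ligand PD-L1, rose by 1.05 (5.97 and 6.23 against 7.14 and 7.17), and GDF15 by 1.56 (8.69 and 8.72 against 10.22 and 10.32).

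Noncoding and little-studied transcripts were also among the 16 largest rises. LINC00973, a long noncoding RNA, read 4.68 and 4.63 against 7.00 and 7.28 (2.48, limma adjusted p = 1.8e-05). ATXN1-AS1, transcribed antisense to ATXN1, read 6.005 and 6.04 against 8.21 and 8.35 (2.26), with 1.27 at another probe set. ZNF93, a zinc finger repressor of retroelements, rose by 2.03, TRIM9, a neuronal ubiquitin ligase, by 1.78 and SEMG1, which encodes semenogelin, by 1.89. ZNF93 had 2 other probe sets at 0.33 and 0.31.

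Besides ZNF93, 4 of these 16 genes had other probe sets that were all at 0.42 or less. NFRKB rose by 2.06 at the probe set used, while its 3 others gave -0.08, -0.11 and 0.30. TTC23 rose by 2.00 at one and 0.11 at the other, MBD2 by 1.85 at one and 0.13 at the other, and ENAH, an actin regulator, by 1.74 against 0.12 to 0.42 at its 4 others. Without doxycycline the probe sets used gave 2.28, 1.36, 1.71 and 1.81 in that order. Across all raised genes 225 had a further probe set above the filter, and in 168 all of them moved upward. A further probe set was called in the opposite direction in 3 raised genes, GART, TCAIM and TTC17, and in the lowered gene ATP2C1.

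**Figure D2:**
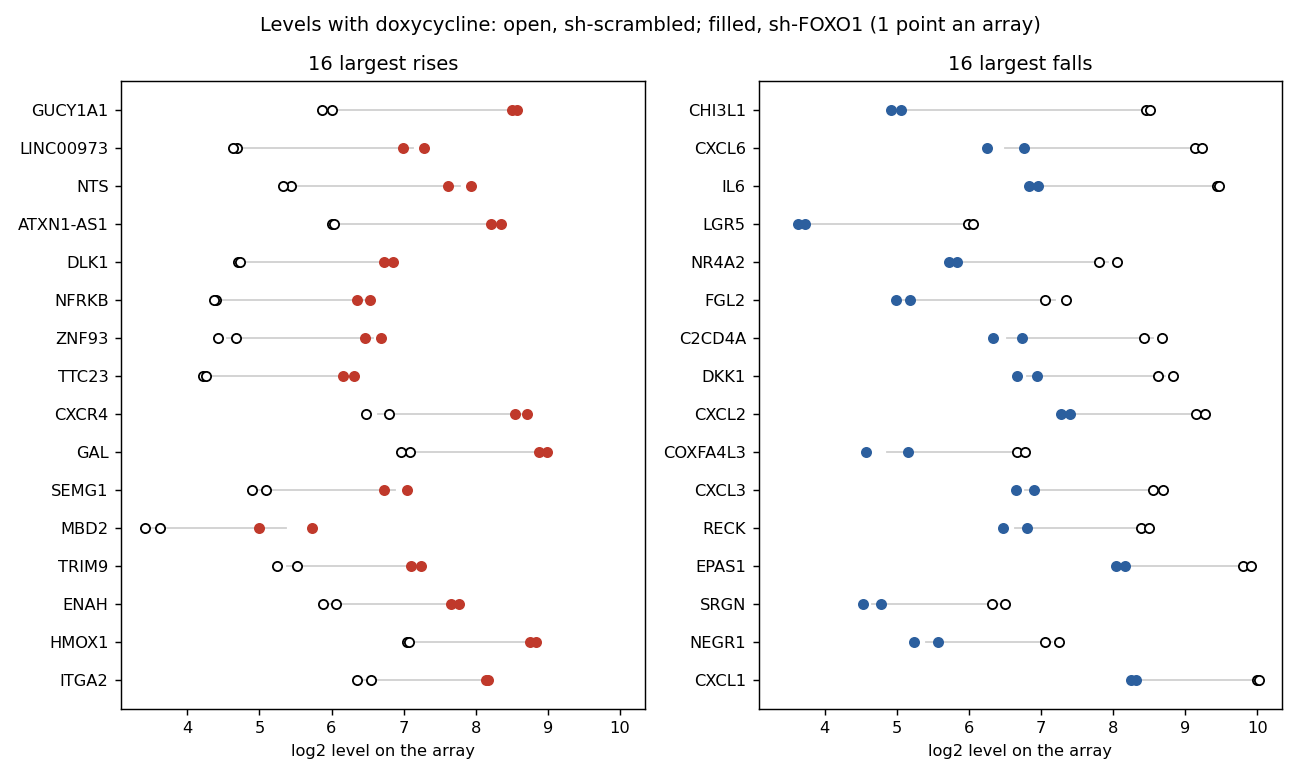
Levels of the 16 genes with the largest rises (left) and the 16 with the largest falls (right) among the called genes, as log2 values on each of the 4 doxycycline arrays. Open circles are the sh-scrambled and filled circles the sh-FOXO1 arrays, and grey lines join the group means. In every gene shown, as in all called genes, both points of one group lie on the same side of both points of the other.

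The largest fall was that of CHI3L1, which encodes the secreted glycoprotein YKL-40 of inflamed and remodelling tissue. It read 8.46 and 8.52 on the sh-scrambled arrays and 4.91 and 5.06 on the sh-FOXO1 arrays. The difference was -3.50 (standard error 0.08, limma adjusted p = 1.9e-06), and its second probe set gave -2.97. FGL2, a fibrinogen-like secreted protein, read 7.05 and 7.35 against 4.98 and 5.18 (-2.12, limma adjusted p = 4.4e-05), and SRGN, the core of secretory granule proteoglycans, 6.33 and 6.50 against 4.54 and 4.78 (-1.76). C2CD4A, a nuclear factor induced by cytokines, fell by 2.03 on the log2 scale (8.44 and 8.69 against 6.33 and 6.73).

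In the list of chemokines and related secreted factors 9 of 19 genes fell (47.4%, against 2.37% of all genes). CXCL12 rose, and the list median was -0.47. The 9 include CHI3L1, the glycoprotein gene with the largest fall, which is neither a chemokine nor a leukocyte growth factor. CXCL6 read 9.13 and 9.23 against 6.25 and 6.76 (-2.68, standard error 0.15, limma adjusted p = 5e-05). CXCL2 read 9.16 and 9.28 against 7.28 and 7.40 (-1.87, limma adjusted p = 4.5e-05). CXCL1 read 10.00 and 10.02 against 8.25 and 8.31 (-1.73, limma adjusted p = 1.8e-05). These neutrophil attractants, with CXCL3 (8.55 and 8.70 against 6.66 and 6.91, -1.84), share the CXCR2 receptor and the NF-kB motif of the promoters printed earlier. Each had groups that did not overlap, as did every called gene.

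The lowered list members also included CHI3L1, CCL5 (-0.96), CCL20 (-0.90), CXCL10 (-0.83) and CXCL8, better known as interleukin 8. CXCL8 read 10.79 and 11.10 against 10.03 and 10.32. Its difference of -0.77 (standard error 0.21, limma adjusted p = 0.027) was the least certain, since it was not called without any one of the 4 arrays (-0.92 to -0.61) and its second probe set gave -0.37. CCL2, an attractant of monocytes, read 12.15 and 12.18 against 11.99 and 11.96 (-0.19, limma adjusted p = 0.15).

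IL6 read 9.44 and 9.47 on the sh-scrambled arrays and 6.84 and 6.96 on the sh-FOXO1 arrays. The difference was -2.56 (standard error 0.07, limma adjusted p = 3.1e-06). In the list of IL6, oncostatin M and STAT3 genes 4 of 25 fell (16%, against 2.37% of all genes), 0 rose and the median was -0.29. The other 3 were OSMR, the oncostatin M receptor subunit, SOCS3, the inhibitor that STAT3 induces (-0.86), and CEBPD, a transcription factor of the acute phase (-1.17). OSMR read 7.61 and 7.54 against 6.39 and 6.46 (-1.16, limma adjusted p = 0.00022), and 2 other probe sets gave -0.96 and 0.28.

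PTGS2, the inducible cyclooxygenase of prostaglandin synthesis, read 9.86 and 9.89 against 8.25 and 8.26 (-1.62, limma adjusted p = 1.8e-05). NFKB2, a subunit of the noncanonical NF-kB pathway, fell by 1.12 on the log2 scale, and TNFAIP2 by 0.72. IL1RAP, a co-receptor for interleukin 1, rose by 0.71, or 0.18 at its probe set of highest mean, which was not called. These were the called members of 30 interleukin 1, prostaglandin and NF-kB genes (10% lowered and 3.33% raised, against 2.37% and 3.08% of all genes). The list median was -0.15. IL1B read 10.37 and 10.41 against 10.30 and 10.23 (-0.13, limma adjusted p = 0.3). The orphan nuclear receptor NR4A2, an immediate early gene, read 7.80 and 8.06 against 5.72 and 5.83 (-2.16, limma adjusted p = 2.4e-05), and 2 other probe sets gave -2.01 and -2.02. It was the lowered gene among 27 immediate early genes, of which JUN (0.88, or 0.46 at its probe set of highest mean) and ARC (0.71) rose.

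EPAS1, MME and OSMR are genes the study chose partly on these samples, so they are not independent evidence of direction. EPAS1, the hypoxia-inducible factor HIF-2 alpha, read 9.80 and 9.92 against 8.04 and 8.16 (-1.76, standard error 0.08, limma adjusted p = 1.9e-05). MME, the membrane peptidase CD10, read 6.74 and 6.94 against 5.62 and 5.77 (-1.15, limma adjusted p = 0.00028), with -0.75 at its second probe set. CDK2, a kinase that can phosphorylate FOXO1, read 6.04 and 5.74 against 5.76 and 5.63 (-0.20, limma adjusted p = 0.36). Of 29 textbook EWS-FLI1-repressed genes 7 fell (24.1%, against 2.37% of all genes) and 3 rose (10.3%, against 3.08%). The 3 were THBS1 (0.83, with 0.30 and 0.53 at other probe sets), JAG1 and HEY1. The 7 were FOXO1 itself, EPAS1, MME, OSMR, DKK1, IL6 and CXCL8, and the list median was -0.03. FOXO1 is among them by design, and EPAS1, MME and OSMR through the study's choice. The share of 24.1% is raised by these genes and is not a separate result. Of 39 EWS-FLI1-activated genes 3 rose (7.69%, UPP1, XG and GRP) and 1 fell (2.56%, DKK2).

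WNT inhibitors and receptors were lowered in part. LGR5, the R-spondin receptor of adult stem cells, read 5.98 and 6.06 against 3.63 and 3.73 (-2.34, standard error 0.08, limma adjusted p = 7.8e-06). DKK1, a secreted WNT inhibitor, read 8.62 and 8.83 against 6.67 and 6.95 (-1.92, limma adjusted p = 6.8e-05), and DKK2, its relative, 7.31 and 7.41 against 5.98 and 6.25 (-1.25). CTNNB1, which encodes beta-catenin, fell by 1.39 at the probe set used and by 0.36 at the one with the highest mean, where it was not called. In all, 4 of 31 WNT genes fell (12.9%, against 2.37% of all genes) and LEF1 rose. LGR5 and CTNNB1 reached the 60th percentile in the sh-scrambled group alone, and 2 members, DKK1 and DKK2, fell among genes that reached it on all 4 arrays.

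Of 50 mitotic genes 13 fell (26%, against 2.37% of all genes), 0 rose, 47 had a negative difference and the median was -0.47. Both sh-FOXO1 arrays were below both sh-scrambled arrays for 43 of them, against 34.2% of all genes. CCNA2, the cyclin of S phase and mitotic entry, read 7.57 and 7.45 against 6.35 and 6.45 (-1.11, limma adjusted p = 8.6e-05), and -0.59 at its probe set of highest mean, short of the fold limit. SPC25, a kinetochore subunit, read 7.57 and 7.57 against 6.38 and 6.56 (-1.10, limma adjusted p = 0.00016). CCNB2, a mitotic cyclin, read 8.86 and 8.81 against 7.82 and 7.94 (-0.96, limma adjusted p = 0.00023). All 3 were lower on each sh-FOXO1 array than on either control array, as was every lowered gene.

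The other 10 lowered mitotic genes lay between -0.95 (CDC20, which activates the anaphase-promoting complex, and the topoisomerase TOP2A) and -0.75 (HMMR). They included the chromosomal passenger genes AURKB (-0.81) and BIRC5 (-0.93) and the ubiquitin-conjugating enzyme UBE2C (-0.91). CCNB1 (-0.69) fell short of the fold limit, and CDK1, the mitotic kinase itself, read 8.55 and 8.58 against 8.11 and 8.32 (-0.35). The motif TTTGAA was held by 8 of the 11 lowered members with a promoter and by 22 of the 32 others. Of 43 G1/S and DNA replication genes 3 fell and 3 rose (6.98% each, against 2.37% and 3.08% of all genes). RRM2 (-0.92), TYMS (-0.79) and TK1 (-0.74) fell. The kinase CDK6 (0.77), CDC25A (0.77) and the repressor E2F7 (1.14) rose. At their probe sets of highest mean CDK6 was at 0.58 and CDC25A at 0.30, short of the limit. The median of this G1/S list was -0.09. DNA repair genes had 0 of 26 called.

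Sterol synthesis, metal binding and contractile genes completed the lowered side. Of 21 cholesterol genes 4 fell (19%, against 2.37% of all genes) and 0 rose. INSIG1, which holds sterol sensors in the endoplasmic reticulum, read 9.50 and 9.47 against 7.95 and 8.06 (-1.48, limma adjusted p = 6.8e-05), and TM7SF2 (-0.96), MSMO1 (-0.85) and LSS (-0.74) encode enzymes of the pathway. Of 9 metallothionein and zinc genes 4 fell (44.4%). These were MT1X (-0.75), MT1H (-0.79), MT1G (-0.84) and the zinc exporter SLC30A1 (-0.71). The metallothioneins, with MT1HL1 (-0.78), are near-identical copies whose probes can share transcripts, so they are not separate measurements. SLC30A1 was at -0.65 by its probe set of highest mean.

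ACTA2 read 11.35 and 11.29 against 10.29 and 10.25 (-1.05, limma adjusted p = 0.00017) and the actin-binding TAGLN fell by 0.73. In the contractile list of 29 genes 4 fell (13.8%, against 2.37% of all genes), with AXL (-0.72) and LATS2 (-0.80), and ANKRD1 rose (0.82). COL5A2, a collagen V chain, read 12.13 and 12.12 against 10.84 and 10.98 (-1.21, limma adjusted p = 7.1e-05), opposite in direction to COL6A3 and COL11A1 (0.82). RPL22L1, a paralogue of a ribosomal protein, read 11.65 and 11.57 against 10.63 and 10.62 (-0.98). NEGR1, a neuronal adhesion protein (-1.75), and COXFA4L3 (-1.86) were among the 16 largest falls.

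The falls of RECK, GLG1 and PCDH7 depended on the probe set. RECK, a membrane inhibitor of metalloproteinases, fell by 1.80 at the probe set used (8.39 and 8.49 against 6.47 and 6.81), and its 3 others gave -0.21, -0.29 and 0.05. GLG1, a Golgi protein, fell by 0.72, one further probe set gave -0.73 and the other 2 gave 0.19 and 0.06. For PCDH7, a protocadherin, 4 other probe sets gave -0.84, -0.22, 0.42 and -0.24. Of the lowered genes 171 had a further probe set above the filter, and in 126 all of them moved downward.

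Other pathways held called genes on both sides or a few on 1 side. Of 39 TGF-beta and BMP genes 4 rose and 4 fell (10.3% each, against 3.08% and 2.37% of all genes). BMP5, a bone morphogenetic protein, rose by 0.97, and GREM1 and CHRDL1, which bind and block such ligands, by 0.83 and 1.26. ID3, a direct BMP target (9.74 and 9.70 against 8.88 and 8.94, -0.81), the receptor-regulated SMAD9 (-0.82), the repressor SKIL (-0.90) and LTBP3 (-0.71), which stores latent TGF-beta in the matrix, fell. SKIL and LTBP3 had further probe sets at 0.04 and -0.48, and at -0.37 and -0.06.

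Of 21 complement and coagulation genes 3 fell (14.3%, against 2.37% of all genes) and 2 rose (9.52%, against 3.08%). PROS1 read 8.20 and 8.22 against 7.01 and 7.05 (-1.18), and the complement component C3 8.58 and 8.40 against 7.51 and 7.38 (-1.04). CD46, a complement inhibitor on cells, fell (-0.81), with -0.25 and -0.24 at 2 other probe sets. F3, the tissue factor that starts clotting, rose by 0.81, and PLAT, the plasminogen activator, by 0.70.

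Of 12 genes of NAD, tryptophan and pyrimidine breakdown 25% fell and 8.33% rose, against 2.37% and 3.08% of all genes. NNMT, KYNU and DPYD fell (-1.12, -0.86 and -0.87) and the uridine phosphorylase UPP1 rose (9.41 and 9.53 against 10.52 and 10.64, 1.11). Of 34 genes in the interferon list 2 fell (5.88%) and 0 rose. They were GBP2 (-1.35) and IFNAR1 (-0.96), which encodes an interferon receptor chain and is not itself an interferon-stimulated gene. Among genes read at the 60th percentile on all 4 doxycycline arrays, 1 member fell. TAP2, a peptide transporter of antigen presentation, fell by 1.10 on the log2 scale, and its probe set of highest mean gave -0.21, which was not called. Of 32 autophagy and lysosome genes 3 rose (9.38%), LAMP1 (0.77), ULK2 (0.71) and ATG7 (1.11). ULK2 had other probe sets at 0.26 and 0.37 and ATG7 at -0.08 to 0.21, so that LAMP1 alone was called at the probe sets of highest mean. Among 33 genes of the unfolded protein response SLC7A5, an amino acid transporter (1.30), and NUPR1 (0.96) rose, and among 35 neural and axon guidance genes GAP43, the intermediate filament NES (0.85) and the glutamate receptor GRIK2 (1.06).

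Calls close to the limit of 0.7 depended on single arrays. Without sh-scrambled replicate 1 the differences of HEY1 (0.69), CTSL (0.68), ITGB8 (0.69), IL1RAP (0.53), RGS2 (0.66), ULK2 (0.66), TLN1 (0.63), LTBP3 (-0.54), TNFAIP2 (-0.58), LSS (-0.68), SLC30A1 (-0.70) and GLG1 (-0.67) were under it. Without sh-scrambled replicate 2 the same held for ARC (0.59), PDGFA (0.65), PLAT (0.61) and HMMR (-0.68), and SMAD9 (-0.80) had a limma adjusted p of 0.054. Without sh-FOXO1 replicate 1 it held for ARC (0.66), PDGFA (0.66), PLAT (0.61), ULK2 (0.64), TLN1 (0.66), SMAD9 (-0.57), AXL (-0.65), BNIP3 (-0.70), CXCL10 (-0.64), DPYD (-0.69), HMMR (-0.68), LATS2 (-0.65), MT1HL1 (-0.67), MT1X (-0.69), SLC30A1 (-0.61) and TYMS (-0.67). Without sh-FOXO1 replicate 2 it held for HEY1 (0.66), CDC25A (0.64), CXCL12 (0.68), JAG1 (0.69), LAMA4 (0.62), RGS2 (0.70), SESN3 (0.70), LTBP3 (-0.58), TNFAIP2 (-0.64), LSS (-0.69) and GLG1 (-0.70). Leaving out 1 array also moved the counts of many lists by over 1.5 times. Fewer raised integrin, NOTCH and EWS-FLI1-repressed genes and fewer lowered metallothioneins were then called. More lowered interleukin 1 and complement genes and more raised unfolded protein response genes were called. Small counts in many other lists moved as well. Such fits leave 1 array in a group. At their probe sets of highest mean JAG1 (0.67), CCL5 (-0.70), TK1 (-0.67) and SKIL (-0.48) were also short of the limit. The calls of the 16 largest rises and the 16 largest falls did not depend on any one array.

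Lists of textbook FOXO target genes held few called genes, on both sides. Among all genes 3.08% rose and 2.37% fell. Among 17 growth arrest and death targets GADD45A rose (0.92), BNIP3, a mitophagy receptor, fell (9.32 and 9.403 against 8.47 and 8.66, -0.79), and the median was -0.01. In a list of 17 a single gene each way is 5.88%, so these counts say little about the list. CDKN1B, which encodes the cell cycle inhibitor p27, read 9.73 and 9.72 against 9.21 and 9.36 (-0.44, limma adjusted p = 0.0053), short of the fold limit. Among 24 metabolic, antioxidant and proteolysis targets SOD2, the mitochondrial superoxide dismutase (-0.78), and NNMT, a nicotinamide methyltransferase (-1.12), fell. CXCR4 (1.99), PRDX3, a mitochondrial peroxiredoxin (1.13, with 0.12 at another probe set), and SESN3, a stress-induced sestrin (0.80), rose. Of the 24, 12.5% rose and 8.33% fell, and the median was 0.03. IRS1, an adaptor of the insulin receptor, rose by 1.11 and by 0.49 at its probe set of highest mean, which was not called. It and IGFBP5 were the called genes among 30 of the insulin and AKT pathway (6.67% raised and 0% lowered).

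The same shRNA was compared with the same control without doxycycline, on 4 other arrays. There 425 genes rose (3.45%) and 287 fell (2.33%). Of the genes raised with doxycycline 182 also rose without it (47.9% of that list and 42.8% of the other). Of the lowered ones 103 also fell (35.3% and 35.9%). The median difference without doxycycline was 0.67 for the 380 raised genes and -0.51 for the 292 lowered ones, against 0.0076 for all genes. CXCR4 (1.49 without), TENT5A (1.02), SNAI2 (1.14), GAP43 (1.73), RECK (-1.80), INSIG1 (-1.28) and ID3 (-0.85, and -0.81 with doxycycline) kept their direction and call in both settings. FOXO1 differed by -0.95 without doxycycline, and its difference did not pass the interaction test (-0.50, limma adjusted p = 0.1).

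The interaction, which asks whether the effect of FOXO1 silencing differs with and without doxycycline, was called for 180 genes upward (1.46%) and 302 downward (2.45%). Of the 380 raised genes 82 had an interaction of the same sign as their difference with doxycycline and 10 of the opposite sign. Of the 292 lowered genes 83 and 1 did. The genes were selected on the difference with doxycycline, which is part of the interaction. Selection therefore favours the same sign, and these counts are a description only. The same sign does not mean an effect further from 0, as for CXCL8 and CCL20. GUCY1A1 read 4.63 and 4.35 against 4.86 and 4.46 without doxycycline, a difference of 0.17 (interaction 2.43, limma adjusted p = 0.00055). LINC00973 differed by 0.17 and ITGA2 by -0.04 there (interactions 2.31 and 1.75, limma adjusted p = 0.00014 and 0.0012). The receptor, ligand and nuclear factor genes NRP2 (1.65 with and -0.0019 without), KITLG (1.59 and 0.13) and LEF1 (1.46 and 0.11) were likewise called with doxycycline alone and passed the interaction test. COL6A3 had an interaction the other way, with a rise of 2.66 without doxycycline (5.60 and 5.88 against 8.36 and 8.43) and of 0.81 with it. GDF15 likewise rose by 3.85 without (6.203 and 6.45 against 10.12 and 10.23) and by 1.56 with doxycycline.

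**Figure D3:**
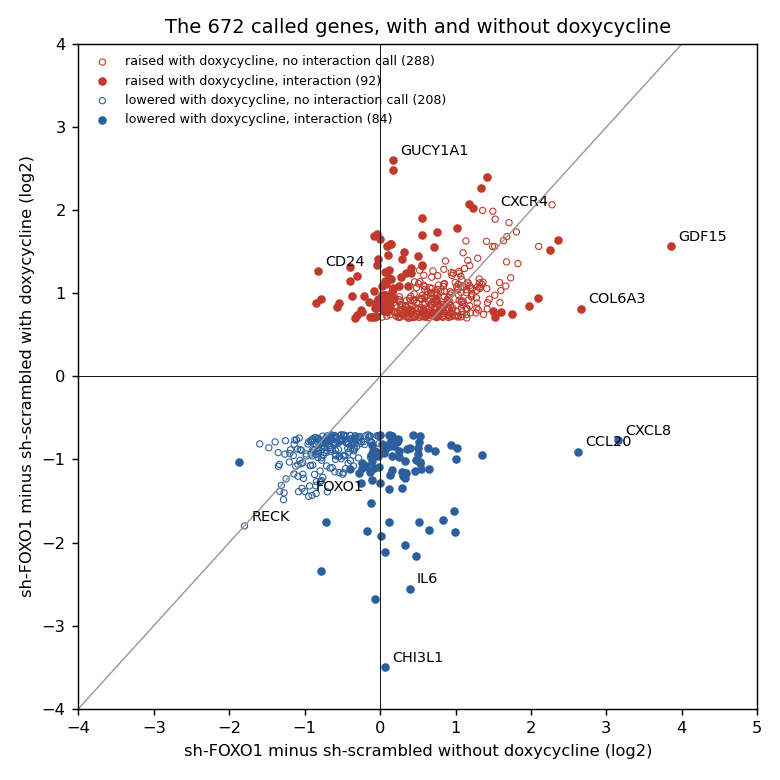
Differences between sh-FOXO1 and sh-scrambled cells (log2) without (horizontal) and with doxycycline (vertical) for the 380 raised and 292 lowered genes. Filled points passed the interaction test, and the diagonal marks equal differences. CXCL8 and CCL20 lie in the lower right quadrant, lowered with and raised without doxycycline.

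Some genes were called in opposite directions in the 2 settings, 3 one way and 10 the other. Raised with and lowered without doxycycline were CD24, a sialoglycoprotein of progenitor and tumour cells (1.27 and -0.83), LPL, lipoprotein lipase (0.93 and -0.78), and VASH2, an angiogenesis factor (0.89 and -0.85). Lowered with and raised without it were CXCL8 (-0.77 and 3.16), CCL20 (-0.90 and 2.63), CXCL2 (-1.87 and 0.99), CXCL1 (-1.73 and 0.84), CXCL10 (-0.83 and 0.94), PTGS2 (-1.62 and 0.98), KYNU (-0.86 and 1.02, with -0.30 with doxycycline at its probe set of highest mean), SERPINB7 (-0.95 and 1.35), SLAMF1 (-0.99 and 1.01) and G0S2 (-0.90 and 0.73). These were chosen for that pattern, so the pairs of values are a description.

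The list of 19 chemokines and related secreted factors had 9 raised and 0 lowered members without doxycycline (median 0.64), where 9 fell with it. Among all genes 3.45% rose and 2.33% fell without doxycycline. CXCL8 read 5.13 and 5.36 in sh-scrambled and 8.09 and 8.71 in sh-FOXO1 cells without doxycycline. CCL2 read 5.92 and 6.03 against 8.87 and 9.08 there, and the stromelysin MMP10 5.05 and 5.15 against 7.97 and 8.25. With doxycycline MMP10 read 11.15 and 11.06 against 10.96 and 11.06. IL1B rose by 2.54 without doxycycline. The list of 30 interleukin 1 and NF-kB genes had 12 raised and 0 lowered genes without doxycycline. The list of 27 immediate early genes also had 12 and 0.

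IL6, CHI3L1, CXCL6, DKK1, EPAS1 and MME were not called without doxycycline (0.39, 0.07, -0.07, 0.01, 0.11 and -0.13 in that order). Their readings in sh-scrambled cells were then 3.25 to 5.41. EPAS1 for example read 5.41 and 5.41 against 5.52 and 5.53. CHI3L1, CXCL6 and DKK1 read under the lower quartile of both sh-scrambled arrays (4.09 and 4.08), where a fall could hardly be read. In sh-scrambled cells doxycycline raised 8.1% of all genes and lowered 7.49% at a limma adjusted p under 0.05 and a log2 difference past 1. It raised EPAS1 by 4.45, IL6 by 4.91 and CHI3L1 by 5.07, and in sh-FOXO1 cells by 2.58, 1.96 and 1.503. GUCY1A1 was raised by doxycycline by 1.44 in sh-scrambled and by 3.87 in sh-FOXO1 cells. These knockdown effects share arrays with the FOXO1 comparisons and are set beside them as levels. All 6 lowered genes stayed higher in sh-FOXO1 cells with doxycycline than in sh-scrambled cells without it.

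The list of 50 mitotic genes had 3 lowered and 0 raised members without doxycycline, where 2.33% of all genes fell, and a median of -0.39. CCNA2 read 9.42 and 9.396 against 8.997 and 8.90 there (-0.46), and its interaction of -0.65 was short of the limit. Doxycycline itself lowered CCNA2 by 1.90 in sh-scrambled cells. The sh-FOXO1 cells with doxycycline had the lowest CCNA2 readings of the 8 arrays.

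**Figure D4:**
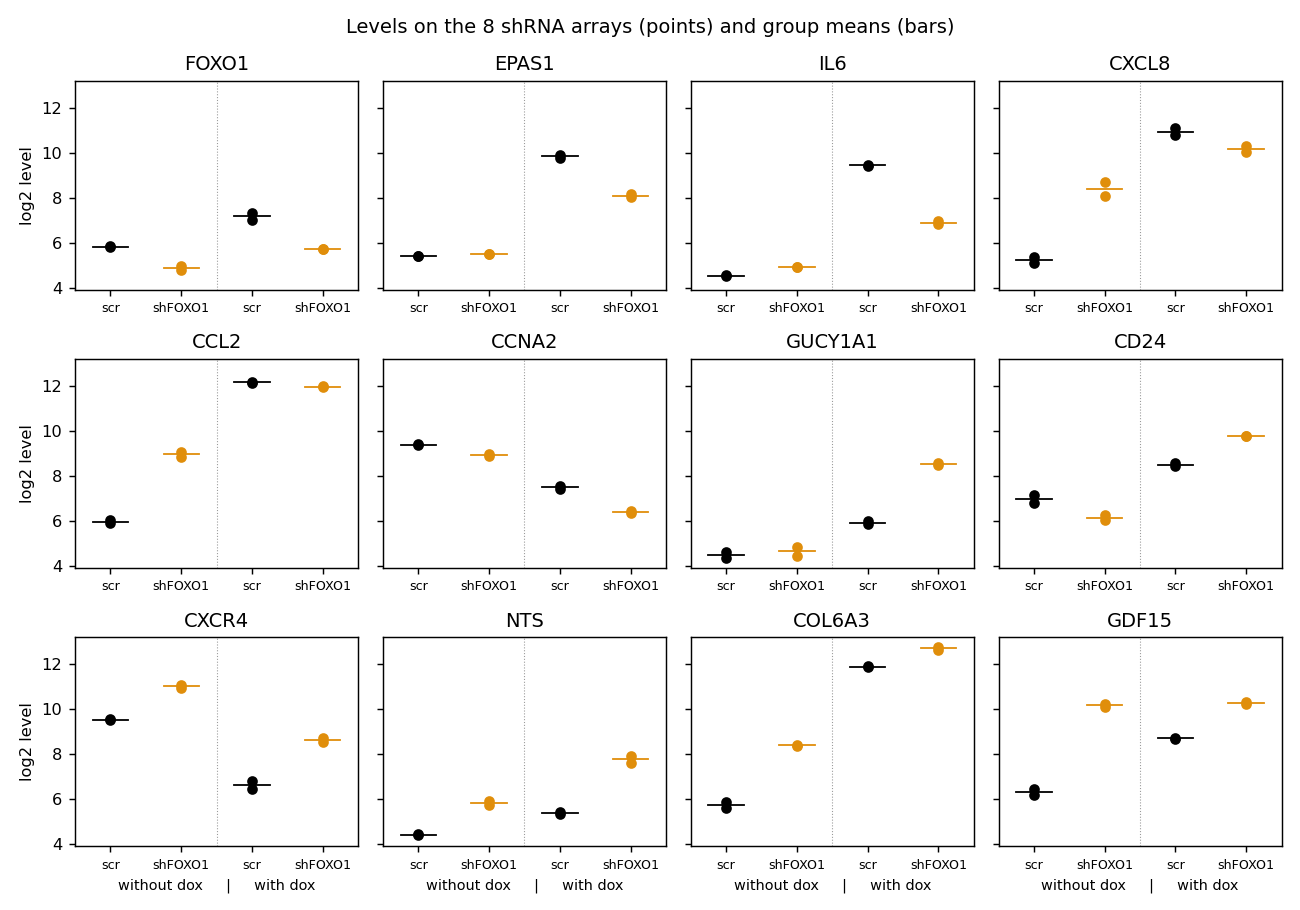
Levels (log2, vertical axis) of 12 genes on the 8 shRNA arrays, by group. Points are arrays, bars are group means, black is sh-scrambled and orange sh-FOXO1, and the dotted line separates arrays without (left) from those with doxycycline (right). CXCR4 and NTS are higher in sh-FOXO1 cells on both sides, whereas EPAS1 and IL6 are lower on the right and CXCL8 changes side.

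Single arrays of FOXO1 mutants, made without doxycycline, gave the opposite manipulation. FOXO1 read 5.84 with empty vector, 8.30 with AKT-resistant and 7.06 with CDK2-resistant FOXO1. With 1 array each there is no test, and a difference past 0.7 is given as a description. Of the 292 genes lowered by silencing 24 were past 0.7 upward with AKT-resistant FOXO1 (8.22%, against 1.69% of all genes). Another 12 were past it downward (4.11%, against 1.51%). FOXO1 (2.46) is among the 24 by design, since it was both silenced and transfected. Of the 380 raised genes 16 were past 0.7 upward (4.21%, against 1.69% of all genes) and 15 downward (3.95%, against 1.51%). Raised genes were thus above the share of all genes in both directions. The medians of both sets were near 0 (0.0052 for raised and 0.0233 for lowered genes). With CDK2-resistant FOXO1 32 of the raised genes were past 0.7 downward (8.42%, against 1.54% of all genes) and 8 upward (2.11%, against 1.73%). Of the lowered genes 23 were upward (7.88%, against 1.73%) and 9 downward (3.08%, against 1.54%). FOXO1 (1.22) is again among the 23 by design.

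Among lowered genes MME (1.48), KYNU (1.42), GBP2, an interferon-induced GTPase (1.20), DPYD, which breaks down pyrimidines (1.14), OSMR (1.05), MT1X (1.05) and EPAS1 (0.90) were above empty vector with AKT-resistant FOXO1. IL6 was at 0.64, DKK1 at 0.46 and CHI3L1 at 0.19. ACTA2 (-0.75), COL5A2 (-0.59) and CXCL3 (-0.49) were below it, the same direction as under silencing. The study chose MME, OSMR and EPAS1 from an overlap that included these mutants, so they are not independent evidence here. With CDK2-resistant FOXO1 EPAS1 was at -0.22, MME at 0.06 and OSMR at -0.07, while CXCL3 was at 1.32 and CXCL1 at 1.21. Among raised genes NTS (-0.95), TAC1 (-1.14) and TIMP3 (-0.74) were below empty vector with AKT-resistant FOXO1. HMOX1 (1.19), ITGA2 (1.46) and MMP3 (2.42) were above it, the same direction as under silencing. With CDK2-resistant FOXO1 GAP43 was at -0.97, HMOX1 at -0.93, TAC1 at -2.19 and CXCR4 at 1.97.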

How the data were processed

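A673sh RNA gave 11 arrays of the Affymetrix design HG-U133 Plus 2. The authors deposited normalized values of 54675 probe sets on each array, with the method of summarising not given in the sources used here. The deposited values run from 2.6 to 14.6 and were taken as log2 from that range. Medians of the 8 shRNA arrays were 5.14 to 5.17. The number of arrays limits the precision.

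Gene symbols came from the platform annotation (41097 probe sets with 1 symbol, 1801 with several, 11777 with none), and 99.9% of the single ones were brought up to date by gene identifier. A probe set was kept if any of the 11 arrays had it at its own 60th percentile or higher. Each of the 12326 genes left (of 19775) was read from its kept probe set of largest interquartile range. The values were fitted with limma 3.58.1 in R 4.3.3 as 7 group means over the 11 arrays. Variances were moderated by empirical Bayes (4 residual and 3.897 prior degrees of freedom) and p-values were adjusted by Benjamini-Hochberg over all 12326 genes. Calls needed both an adjusted p below 0.05 and a difference past 0.7 on the log2 scale. The interaction is the difference with doxycycline minus the difference without it.

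The members and the 54 gene lists were chosen with earlier results of these data known. Genes named are those with the 16 largest differences in each direction, the 8 of highest reading in each direction, called list members, genes the study names and the 5 largest interactions in each direction. The genes just inside and outside the limit, those of opposite sign in the 2 settings, those with opposite probe sets and the members not called (such as IL1B, CDK1 and CCNB1) were named after their values were seen. Lists were described by counts and medians, with no test. Motifs were sought in RefSeq promoters (GRCh38.p14) with Python 3.11.15. Alternatives changed the filter, probe set, scaling, limits, arrays and replicate block.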

Additional observations from a re-analysis of the deposited data

Results flagged for a closer look

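The effect of FOXO1 silencing differed between cells with and without doxycycline by the interaction test (limma) in 482 genes. Among the genes named by size, the effect was more negative with doxycycline for the chemokines CXCL8 (interaction -3.92), CCL20 (-3.53), CCL2 (-3.19), CXCL2 (-2.87), CXCL6 (-2.60), CXCL1 (-2.56) and CXCL3 (-2.49). It was more negative for the secreted or matrix-related CHI3L1 (-3.57), MMP10 (-3.10), IL6 (-2.95), SRGN (-2.28), FGL2 (-2.18) and DKK1 (-1.92). The same held for the regulators NR4A2 (-2.64), C2CD4A (-2.36) and EPAS1 (-1.87), for COXFA4L3 (-1.69), and for the membrane proteins LGR5 (-1.56) and NEGR1 (-1.03). Without doxycycline CHI3L1, SRGN, FGL2, DKK1, CXCL6, C2CD4A, NR4A2 and COXFA4L3 read under the lower quartile (4.09 and 4.08) on both sh-scrambled arrays. A fall could hardly be read there, so for these genes a fall with doxycycline alone gives a negative interaction.

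The effect was more positive with doxycycline for GUCY1A1 (2.43), LINC00973 (2.31), CD24 (2.10), ENDOD1 (1.78), ITGA2 (1.75), GAL (1.35), HMOX1 (0.98), NTS (0.98), ATXN1-AS1 (0.92), DLK1 (0.90), ZNF93 (0.80) and TRIM9 (0.76).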

How the results depend on the processing

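The counts of genes with doxycycline (380 raised, 292 lowered) stayed within 1.5 times of these under 11 of 13 and 12 of 13 alternatives. The members changed more. With the probe set of highest mean 295 rose and 248 fell, of which 268 and 214 were among the 380 and 292. The main choice, by interquartile range over the same arrays, favours probe sets that vary between them. A fold limit of 1 left 133 and 93, and 246 raised genes were among those read at the 60th percentile on all 4 doxycycline arrays, an alternative chosen after seeing the data. Without one array they ranged from 307 to 432 raised and from 255 to 352 lowered. Without doxycycline (425 and 287) a limit of 1 left 202 and 70, the probe set of highest mean gave 188 lowered, and leaving out an array gave 374 to 528 and 226 to 449, the last without sh-scrambled replicate 1. A limit of 1 left 199 of 482 interactions, and leaving out an array gave 351 to 594. Same-numbered arrays deviated together from their group means (correlation 0.529 for the doxycycline groups, 0.44 to 0.621 over the 6 pairs of groups), but the labels do not say what the numbers stand for and 2 pairs do not settle it. With the replicate block 382 genes rose and 298 fell with doxycycline, 426 and 292 without, and 553 interactions were called. All 380 and 292 were among them.

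Of 188 called genes of the rule for named genes and lists, 145 were tested under all 12 alternatives other than the limit of 1, and 98 of these kept their call and direction in all 12. Of the 188, 11 were not tested with the filter on the mean of the doxycycline arrays, and 43 (among them NTS, DLK1, TRIM9, SEMG1 and LINC00973) not among genes at the 60th percentile on all 4. With the probe set of highest mean the sign reversed for GLG1 (0.19), NFRKB (-0.11), PRKACB (-0.57), RECK (0.0483) and TLN1 (-0.17), and with the filter on the mean of the doxycycline arrays for PRKACB (-0.12). The cause was not tested.

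Limits are 2 arrays a group, 1 cell line, 1 shRNA plasmid, and mixed transfected and untransfected cells. Effects of the shRNA on transcripts other than FOXO1 were not tested.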
